A study of Homo sapiens with 10 samples.

Results

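The loci described here are 4873 very short stretches of the human genome that carry no gene symbol. They were taken from a gene table of 241080 loci, of which 192931 were tested by the authors. A locus was included where its identifier began with CLOC, its test status was OK, its region was at most 500 bases long and it lay outside chromosome 6 at 26 to 29 Mb of the hg19 build. The included loci made up 2.79% of the 174660 tested loci without a symbol. They fell in 4859 regions of 52 to 500 bases with a median of 368 bases, and 0 of them had a symbol of their own. The sources used here do not say how CLOC loci were defined.

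The RNA came from nuclei of HEK293, an established human embryonic kidney cell line grown as an adherent culture. Nuclei of 3 biological replicates were each split, giving 3 samples of the soluble nuclear extract (SNE) and 3 of the chromatin pellet extract (CPE). Chromatin pellets were also collected with DRB, a compound that stops RNA polymerase II from elongating (2 samples), and after a mock treatment (2 samples). The table used here holds values for SNE and CPE only, so the DRB and mock samples enter no comparison. All groups share 1 cell line, and the material is nuclear RNA. Of the kidney and neuronal markers seen in HEK293, the authors' deposited table gives LHX1 at 0.750 FPKM in SNE and 0.505 in CPE and PAX2 at 0.303 and 0.235, whereas the neurofilament genes NEFL and NEFM were under 0.2 FPKM and untested. HBB, CD3E and MYH7, markers of other tissues, were listed at 0. In the same authors' deposited table the log2 ratio of CPE over SNE was 3.44 for NEAT1 and 1.45 for MALAT1, 2 RNAs held at chromatin, and -2.34 for GAPDH, a spliced and exported mRNA.

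Transcripts that are still being made, or that stay where they were made, are recovered with the chromatin pellet. Processed messenger RNAs leave with the soluble extract. A sequencing library read over the whole genome also picks up short islands of reads: pieces of introns and of transcripts that run past a gene's end, small RNA genes transcribed by RNA polymerase III (transfer RNAs, vault RNAs, U6), microRNA precursors, and processed pseudogenes, which are intronless copies of messenger RNAs. An island over a processed pseudogene can hold reads of the parent messenger RNA, because both sequences are nearly alike.

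A few of the short loci lay in regions that also hold a named small RNA, and the sequences of those RNAs show what such a locus can contain. Both vault RNAs below are shown because the loci over them were called higher in chromatin. Capitals mark the match to GTTCGANNC, the core of the B box of an internal RNA polymerase III promoter. The sequences come from GENCODE 29 transcripts.
VTRNA1-1: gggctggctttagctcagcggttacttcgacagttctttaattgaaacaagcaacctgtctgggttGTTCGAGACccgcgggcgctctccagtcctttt
VTRNA1-3: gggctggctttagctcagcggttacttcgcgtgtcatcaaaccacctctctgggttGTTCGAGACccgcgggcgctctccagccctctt
Their first 29 bases are the same. The motif was found once on the given strand of each, at bases 67 to 75 of VTRNA1-1 and 57 to 65 of VTRNA1-3, and 0 times on the reverse strand. For comparison, 291 of 35116 RefSeq promoter windows of 300 bases (0.829%, GRCh38.p14, both strands) hold it. These windows differ in kind and length from the vault RNA transcripts, so this share is not a matched rate.

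The microRNAs below, from genes that share a region with a locus of the set, are shown as examples of a called locus (MIR183 and MIR96) and an uncalled one (MIR193A). MIR5696, MIR4710 and MIR3178 also share a region with an uncalled locus. Capitals mark the seed, bases 2 to 8, by which a microRNA pairs with its targets. The sequences are RefSeq mature forms of GRCh38.p14.
hsa-miR-183-5p: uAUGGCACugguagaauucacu
hsa-miR-96-5p: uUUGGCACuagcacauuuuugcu
hsa-miR-193a-3p: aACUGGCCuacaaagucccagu
MIR183 and MIR96 lie in the region of CLOC_163480 (chr7:129414532-129414854), which the authors' deposited table lists at 0 in SNE and at 18.5 FPKM in CPE (q = 0.000706). Over MIR193A, the authors' deposited table gives CLOC_065075 at 0.0299 FPKM in SNE and 0.357 in CPE (q = 0.443, not called). The rows of MIR183, MIR96 and MIR193A themselves are listed at 0 in both fractions and untested in the authors' deposited table, and a locus value is not a level of the mature microRNA. The 3 seeds differ from each other.

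Levels are in FPKM, fragments scaled to the effective length of the region and to library size, with 1 value per fraction that the authors computed over 3 libraries. A locus is called here where the authors' q-value was at most 0.05, and the sign of their log2 ratio (CPE over SNE) gives the direction. Medians of the log2 ratio are taken over loci above 0 in both fractions, unless a pseudocount is named. By this rule 1408 of the 4873 short loci (28.9%) were higher in chromatin, against 8.73% of all tested loci and 9.45% of all tested loci without a symbol. Most loci without a symbol (160354) share a region of at least 10001 bases, and 6.9% of these were called in CPE. Unnamed loci alone in regions over 500 bases were called in CPE more often than the short loci, at 3317 of 6636 (49.98%). Of the 4766 short loci alone in their region, 29.3% were called in CPE. Only 110 of the 4873 short loci (2.26%) were higher in the soluble extract, against 4.3% of all tested loci and 0.63% of those without a symbol. Fewer cells with such an RNA and less of it per cell cannot be told apart in these bulk samples. At a q of at most 0.01 the calls were 1286 in CPE, against 6.12% of all tested loci, and 99 in SNE, against 3.48%. The other 3355 were not called, and 3221 of them had a ratio above 0. The median level was 0.0879 FPKM in SNE and 0.983 FPKM in CPE. Over the 3634 loci above 0 in both fractions the median log2 ratio was 2.81 (interquartile range 1.58 to 3.84), beside 3.05 over all tested loci and 3.22 over unnamed loci in longer regions. The 492 symbol loci in regions as short stood on the other side, with 38 called in CPE, 157 called in SNE and a median of -2.05. The 3 most abundant of them, RNU4-2, RNU4-1 and RNU2-64P, were nonetheless called in CPE. Their log2 ratios were 1.76, 1.75 and 1.42 in the authors' deposited table.

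**Figure D1:**
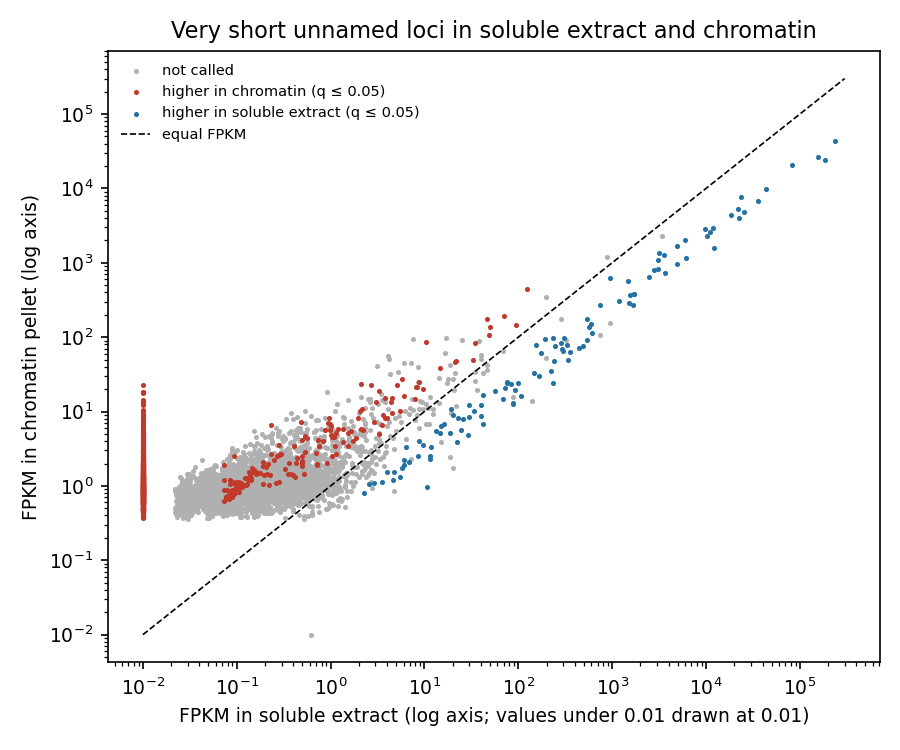
Each point is 1 short unnamed locus, placed by its FPKM in the soluble extract and in the chromatin pellet (both axes logarithmic, values under 0.01 drawn at 0.01) and coloured by the authors' call. The mass of loci lies at low FPKM above the diagonal, and the loci called in the soluble extract form an arm that reaches 234714 FPKM below it.

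The low FPKM values keep the reads behind them. For loci alone in their region, each FPKM value multiplied by the effective length of the region was a sum of whole multiples of 3 steps per fraction, 1 step for each library. The effective length that gave this was that of fragments of mean 200 and SD 80 bases, between 48 and 440 bases long. Within 1e-05 of the value, 4604 of 4619 SNE values (99.7%) and 4514 of 4541 CPE values (99.4%) in the range that could be decoded came out whole in 1 way only. Both fractions were recovered for 4471 short loci; the other 402 shared a region, had too many fragments or gave no single solution. The libraries recovered this way cannot be tied to sample labels, so they are numbered by the size of their step. One fragment was worth 0.0221 to 0.0266 FPKM in SNE at 500 bases, 0.0655 to 0.0789 at 300, 0.233 to 0.281 at 200 and 3.59 to 4.32 at 100 bases. A given FPKM therefore stands for far fewer fragments in a shorter region, and levels of loci of unequal length are best read in fragments.

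Behind the median short locus stood 2 fragments over the 3 SNE libraries (interquartile range 0 to 4) and 21 over the 3 CPE libraries (18 to 27). Tested loci were also concentrated above a floor. The largest library of a locus held 9 fragments at 119 loci, 10 at 1222 and 11 at 888, and only 147 of the 4471 had fewer than 10 in every library. A CPE library reached 10 fragments at 4320 of them and an SNE library at 111, of which 4 reached it in SNE alone. Nearly all of the recovered loci thus reached the floor in chromatin, where they are also the higher, so the counts and medians over them are descriptions and support no direction of their own. The 107 short loci alone in their region that were left untested held a median of 1 fragment in SNE and 13 in CPE, with at most 16 in CPE. Their largest library held a median of 10 fragments and at most 13, so the floor is not an exact limit.

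Among loci with recovered fragments, calls went with an SNE value of exactly 0. All 1228 recovered loci with 0 SNE fragments were called higher in chromatin by the authors' test, with a median of 20 CPE fragments. Of the 944 loci with 1 SNE fragment, whose median was 21 CPE fragments, 0 were called, and 0 had an unadjusted p under 0.05 in the authors' test. Loci with 2 SNE fragments (599) gave 0 calls, those with 3 gave 70 of 403, and those with 4 (264) or 5 (188) gave 0. Among the loci with 3, the call was made at 28 of 71 with 1 fragment in each library and at 42 of 332 with another distribution. Over all 4873 loci the same split held: 1236 of the 1238 listed at 0 in SNE were called, and 172 of the 3635 above 0 (4.73%), against 8.44% of all tested loci above 0 in both fractions. All calls in SNE were above 0 in both, 110 of 3634 such short loci. Of all tested loci above 0 in both, a larger share, 4.63%, was called in SNE. A single SNE fragment out of 3 libraries therefore separates loci with q = 0.000706, the smallest in the table, from loci far from the threshold. The 2 loci at 0 that were not called, CLOC_011448 (1.11 FPKM in CPE, q = 0.432) and CLOC_019342 (1.09 FPKM, q = 0.194 in the authors' deposited table), both share a region with a symbol locus.

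**Figure D2:**
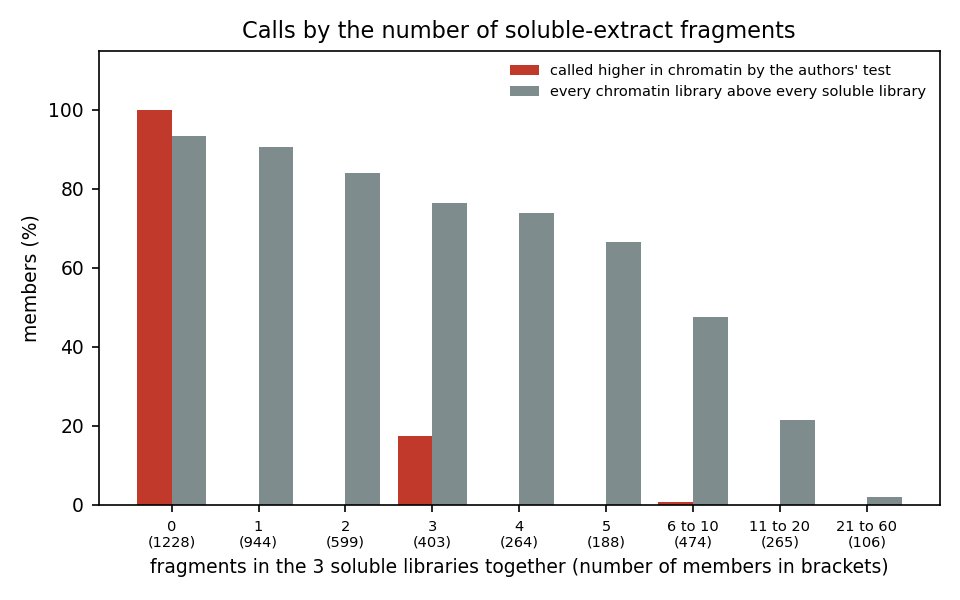
Bars give the percent of 4471 short unnamed loci called higher in chromatin by the authors' test (red) and the percent in which every chromatin library exceeded every soluble library (grey), by the number of fragments in the 3 soluble libraries together. The red bars fall from 100 percent at 0 fragments to 0 at 1 fragment, while the grey bars pass from 93.5 to 90.7.

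Library by library, the loci on either side of that split looked alike. CLOC_006074 (chr1:185320524-185320762) had 0, 0 and 0 fragments in the SNE libraries and 13, 4 and 3 in the CPE libraries. It was called in the authors' deposited table (q = 0.000706). CLOC_004546 (chr1:155302661-155302936) had 1, 0 and 0 in SNE and 5, 10 and 6 in CPE, and its q in the authors' deposited table was 0.454. CLOC_009786 (chr1:38257015-38257328) had 0, 1 and 1 in SNE and 11, 6 and 4 in CPE, with q = 0.493 in the authors' deposited table. In all 3 loci every CPE library lay above every SNE library. Expressed as FPKM per library, CLOC_004546 ranged from 0 to 0.248 in SNE and from 1.06 to 2.72 in CPE.

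The per-library values were also fitted across replicates, with limma on log2(FPKM per library + 0.1), 3 against 3, over 6630 unnamed loci of at most 1000 bases with recovered fragments. Because the loci reached the floor for testing in chromatin, their direction was largely fixed by their choice, and the counts that follow describe the 2 kinds of call and support no difference between the fractions. At a Benjamini-Hochberg adjusted p of at most 0.05, limma called 3515 of the 4471 short loci (78.6%) in CPE, against 81% of all 6630, of which the short loci are themselves the larger part. Among the other 2159, which were over 500 bases long, it called 1855 (85.9%). It called 0 short loci in SNE, and 0 at an unadjusted p under 0.05. The abundant loci described further on share a region or have too many fragments to be recovered, and were not in this fit. Of the 944 loci with 1 SNE fragment, at which the authors' test made 0 calls, limma called 891. The libraries did not overlap, with CPE higher, at 3420 short loci (76.5%, beside 80.6% of all 6630 and 89.0% of the 2159 longer ones) and with SNE higher at 2.

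By length, the shortest class stood apart from the rest. Of the 29 loci of up to 100 bases, 23 were called in SNE, 0 in CPE (0 also at an unadjusted p under 0.05 in the authors' test) and 6 were not called, with a median log2 ratio of -1.81. Their median levels were 3142 FPKM in SNE and 1154 in CPE, which the short effective length turns into about 152 and 42.9 fragments. From over 100 up to 200 bases, 64 of 196 loci were called in CPE and 19 in SNE. The 998 loci of over 200 and up to 300 bases had 311 calls in CPE and 18 in SNE, the 1856 of up to 400 had 580 and 22, and the 1794 of up to 500 had 453 and 28. Over all tested loci, 8.73% were called in CPE and 4.3% in SNE. In the 4 classes over 100 bases the share called in CPE was 32.7, 31.2, 31.25 and 25.3%. Of these calls 59, 287, 520 and 370 were at loci listed at 0 in SNE, of which the shortest class held 0. The median log2 ratio over loci above 0 in both fractions rose through these classes, from 2.04 to 2.49, 2.86 and 2.99. Median CPE levels fell from 8.12 to 1.91, 0.982 and 0.724 FPKM, but in recovered fragments they went the other way, from 16 to 18, 21 and 25.

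At the length limit itself nothing broke. The 19 loci of exactly 500 bases had CPE levels of 0.396 to 1.21 FPKM (median 0.797), 2 at 0 in SNE and 3 calls in CPE. The 17 unnamed loci of 501 bases just outside had 0.381 to 1.30 FPKM in CPE (median 0.660), 5 at 0 in SNE and 6 calls. Among unnamed loci alone in their region, the share at 0 in SNE went from 25.9% at up to 500 bases to 16.3% at 501 to 600, 10.2% at 601 to 800 and 5.45% at 801 to 1000. The share called in CPE among those above 0 went the other way, from 4.61 to 10.9, 21.1 and 42.7%, while the median log2 ratio moved only from 2.85 to 3.15, 3.08 and 3.31.

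The ratio also differed by distance to a named gene. The distance runs to the closest region that holds a tested locus with a symbol. The classes held 1208 loci within 1 kb, 1643 at 1 to 10 kb, 1337 at 10 to 100 kb and 632 beyond 100 kb. Over those above 0 in both fractions (1001, 1227, 958 and 398), median log2 ratios were 1.94, 2.83, 3.14 and 3.58. The share at 0 in SNE, left out of these medians, rose from 17.1 to 25.3, 28.3 and 37.0%. Levels differed more in the soluble extract: median SNE levels were 0.199, 0.0899, 0.0634 and 0.0383 FPKM, against CPE medians of 1.08, 0.955, 0.932 and 0.942. In recovered fragments the mean went from 5.91 to 3.43, 2.50 and 1.41 in SNE and from 23.9 to 22.4, 22.1 and 22.2 in CPE. The floor for testing and the upper limit of decoding apply to CPE fragments in every class, so little change was possible there. The order held in loci over 300 bases (medians 1.99, 2.89, 3.26 and 3.75), and in those of up to 300 bases the middle classes lay level (1.62, 2.68, 2.63 and 3.10). Longer unnamed loci had medians of 2.24, 2.99, 3.49 and 3.96 in these 4 classes, but most of them lie in a region that also holds a tested named locus, where their median was 3.22. The medians followed no steady order with the SNE level of the nearest gene in any distance class. Within 1 kb they were 1.97, 1.78, 2.03 and 1.51 for neighbours under 1, at 1 to 10, at 10 to 100 and at 100 or more FPKM. At 10 to 100 kb they were 3.51, 2.93, 3.08 and 2.65. From the lowest to the highest neighbour level, the share called in CPE went from 19.1 to 22.5% within 1 kb and from 40 to 26.1% at 10 to 100 kb.

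**Figure D3:**
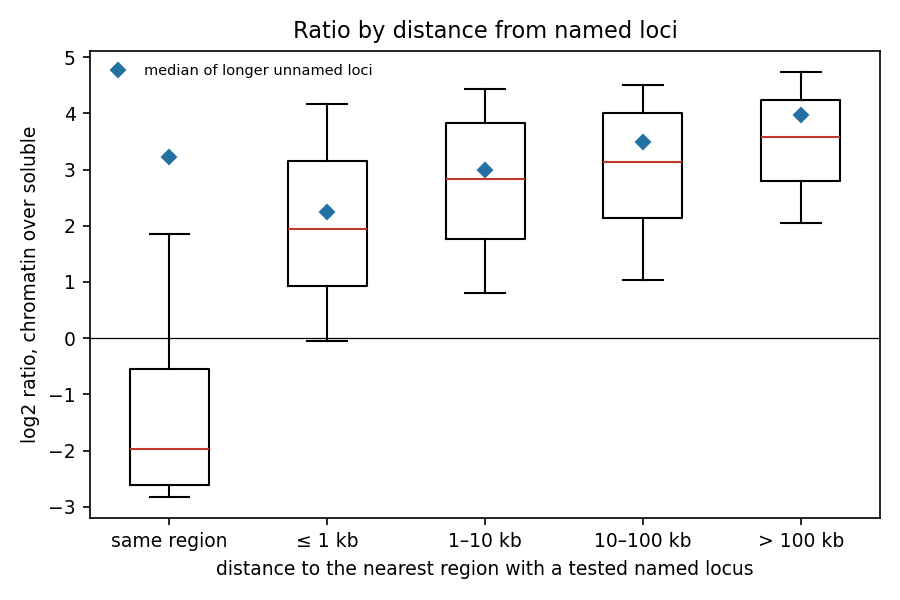
Boxes give the log2 ratio of chromatin over soluble FPKM (vertical axis) of short unnamed loci above 0 in both fractions, by distance to the nearest named gene (horizontal axis, kb), with the median in red, quartiles as box edges and whiskers at percentiles 10 and 90, and diamonds give the median of longer unnamed loci. Medians of the short loci climb from 1.94 within 1 kb to 3.58 beyond 100 kb, and the 42 loci whose region is the same as, or overlaps, that of a tested named locus have a median of -1.97.

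Chromosomes differed in the share of calls and in gene spacing. The share called in CPE ran from 14.3% on chromosome 19, 14.5% on 22 and 15.4% on 17 to 33.6% on 2, 34.7% on 13 and 38.1% on 18, with a median of 28.9% over the 22 autosomes and X. The median distance to a named gene was 832 bases on chromosome 19 and 1785 on 17, against 26726 on 4 and 25617.5 on 2. The share at 0 in SNE ran from 9.73% on chromosome 16 to 34.7% on 18. In recovered loci, mean SNE fragments were highest on chromosomes 19 (6.59), 21 (6.34) and 17 (6.01) and lowest on 4 (2.38) and 2 (2.53). Mean CPE fragments lay between 20.4 (chromosome 11) and 25.8 (chromosome 6). The floor for testing and the upper limit of decoding (at most 48 CPE fragments in a recovered locus) largely fixed this narrow range in advance. Chromosome 2 held the most short loci (592), followed by 6 (428) and 4 (357). They made up 1.87% (chromosome 3) to 4.40% (chromosome 13) of a chromosome's tested unnamed loci. A further 15 lay on other sequences, with 3 called in CPE and 3 in SNE, among them CLOC_180839 at bases 1 to 406 of the mitochondrial genome, which the authors' deposited table gives at 329.5 FPKM in SNE and 79.5 in CPE.

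**Figure D4:**
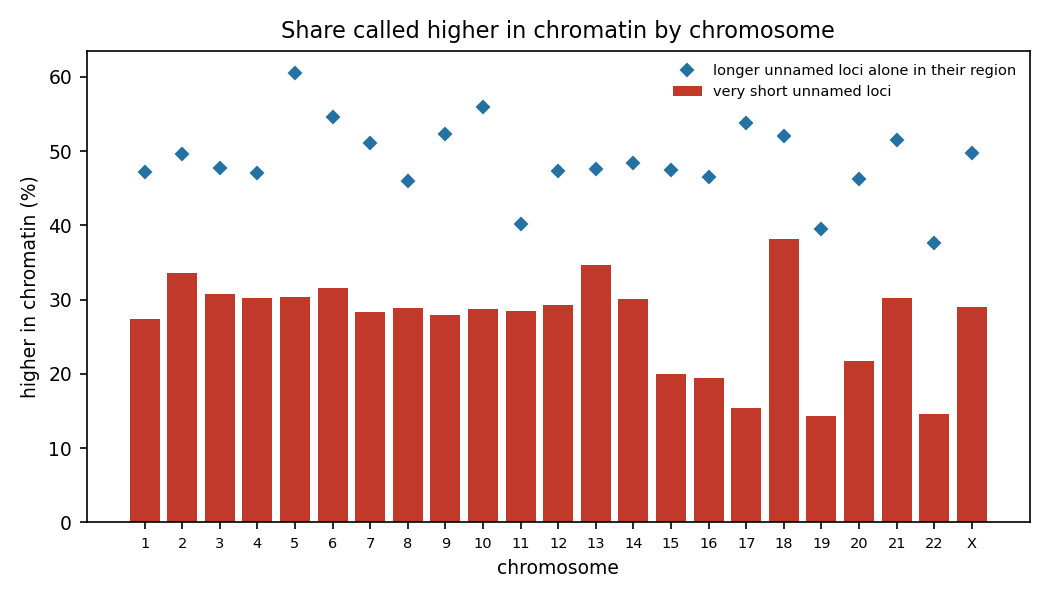
Bars give the percent of short unnamed loci called higher in chromatin on each chromosome, and diamonds the same for longer unnamed loci alone in their region. The bars run from 14.3 percent on chromosome 19 to 38.1 percent on chromosome 18, below the diamonds, which run from 37.6 to 60.5.

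The loci were clustered along chromosomes. The median distance to the nearest other region of the set was 6045 bases, and 55.4% of regions had another within 10 kb. Of 1522 windows of 1 Mb that held any, 16 held at least 20, with 452 loci in all. In these windows 191 loci (42.3%) were called in CPE, against 28.9% of all short loci and 8.73% of all tested loci. In SNE 0 were called (1 at an unadjusted p under 0.05 in the authors' test), against 2.26% of all short loci and 4.3% of all tested loci. The fullest window, on chromosome 4 between 181269523 and 181892537, held 70 loci, of which 33 were called in CPE and were at 0 in SNE. Its median levels were 0.0275 FPKM in SNE and 0.908 in CPE, and its median distance to a named gene was 901800 bases. The 135 longer unnamed loci of that window had a median log2 ratio of 4.32, beside 3.97 for the short ones. On chromosome 13 from 76516483 to 76862978, 18 of 31 loci were called in CPE and 17 were at 0 in SNE. On chromosome 2 from 174259026 to 174551237, 16 of 24 were called in CPE and 16 were at 0 in SNE. Calls in these windows thus largely restate the loci at 0 in SNE. CDCA7, a cell cycle gene, was the nearest named gene of 13 of those 24. The 27 loci of chromosome 2 between 122663580 and 122993168 had TSN, which encodes the nucleic acid binding protein translin, as nearest named gene. The authors' deposited table gives TSN at 79.0 FPKM in SNE and 15.6 in CPE, whereas these loci had a median log2 ratio of 3.73.

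Some loci called in chromatin had a measurable level in both fractions. Of the 172 calls in CPE with SNE above 0, 30 reached 10 FPKM in CPE. This group, chosen after its values were seen, lay on 13 chromosomes, with a median of 8.17 FPKM in SNE (2.05 to 123) and 23.4 in CPE (10.1 to 442) and a median log2 ratio of 1.47 (0.60 to 3.50). CLOC_062464 (chr16:22206945-22207082), the highest, stood at 123 FPKM in SNE and 442 in CPE (log2 ratio 1.84, q = 0.000706) in the authors' deposited table. CLOC_059512 (chr16:3202929-3203227) stood at 70.0 and 193 FPKM (log2 ratio 1.46, q = 0.000706) in the authors' deposited table. CLOC_046387 (chr14:21101118-21101591) stood at 94.6 and 145 FPKM there (authors' deposited table, log2 ratio 0.61), about 3508 fragments in SNE and 5653 in CPE. The ratios of these 3 loci are smaller than the median of the set.

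Many of them lay between genes that flank transfer RNA genes. Each locus was placed in the gap between its flanking named genes and the same gap was read in RefSeq's gene order of GRCh38.p14, accepting gaps whose lengths in the builds differed by at most 2 times. Of the 26 loci of the group that could be placed, 19 (73.1%) lay in a gap with a transfer RNA gene, at a median gap of 36358.5 bases. The share was 19.8% (24 of 121) in the other calls above 0 in SNE, 0.0915% (1 of 1093) in calls at 0 in SNE, 1.96% (2 of 102) in calls in SNE and 2.13% (91 of 4277) in all placed loci, whose median gap was 71841 bases. No test was made, and such a gap does not place the locus on the transfer RNA gene. The gap of CLOC_059512, between CASP16P and OR1F1, holds 11 transfer RNA genes, and that of CLOC_046387, between RNASE12 and OR6S1, holds 7. The 13 loci on chromosome 14 from 21078294 to 21151748 all had ratios above 0 (0.35 to 2.25), with 9 called in CPE and SNE levels from 0.221 to 94.6 FPKM. CLOC_068009 (chr17:8042518-8042811), between the clock gene PER1 and HES7, had 2 such genes in its gap and stood at 3.29 and 19.1 FPKM (log2 ratio 2.54) in the authors' deposited table.

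Both vault RNA loci printed above belong to the same group, and their gaps hold no transfer RNA gene in RefSeq. Vault RNAs are small RNA polymerase III transcripts that form part of the cytoplasmic vault particle. CLOC_134690 (chr5:140105735-140106089), over VTRNA1-3, stood at 46.8 FPKM in SNE and 178 in CPE (log2 ratio 1.93, q = 0.000706) in the authors' deposited table. The named row of VTRNA1-3 in that region was listed at 0 in both fractions and marked as low data in the authors' deposited table. CLOC_134689 (chr5:140090860-140091167), over VTRNA1-1, stood at 4.51 and 15.4 FPKM (log2 ratio 1.77, q = 0.000706) in the authors' deposited table. The named row of VTRNA1-1 had 11.5 and 27.7 FPKM in that authors' deposited table (q = 0.537). In all, 12 short loci share a region with a small RNA gene: 3 were called in CPE, 0 in SNE (0 also at an unadjusted p under 0.05 in the authors' test), and their median log2 ratio was 1.81. RNY1, a Y RNA of the Ro particle, was in a region whose uncalled locus the authors' deposited table gives at 46.6 FPKM in SNE and 42.2 in CPE.

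Among called loci with at least 1 FPKM in both fractions, the largest ratios were at CLOC_062682, CLOC_093510 and CLOC_065649. CLOC_093510 (chr2:157257311-157257765), between NR4A2 and GPD2, stood at 10.3 and 87.0 FPKM (log2 ratio 3.08, q = 0.00134) in the authors' deposited table. CLOC_062682 (chr16:33530000-33530151) stood at 2.09 and 23.7 FPKM (log2 ratio 3.50, q = 0.0259) in the authors' deposited table, and these values rest on 1, 2 and 0 fragments in SNE and 16, 8 and 12 in CPE. The region is 152 bases long. Among loci at 0 in SNE the highest was CLOC_154458 (chr7:30202875-30203010), 56 bases from C7orf41, at 22.4 FPKM of CPE by the authors' deposited table, which is 8, 10 and 4 fragments.

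The 110 loci called in the soluble extract were abundant. Their median level was 207 FPKM in SNE and 48.4 in CPE, with a median log2 ratio of -1.96 (-3.47 to -0.61). Of the 71 short loci with at least 100 FPKM in SNE, 61 were called in SNE and 1 in CPE, and of the 35 with at least 1000 FPKM, 34 were called in SNE. Over all tested loci, at any level, 4.3% were called in SNE and 8.73% in CPE. The choice by SNE level favours calls in SNE, so these counts are descriptions and support no direction of their own. The loci called in SNE also lay close to named genes, at a median of 845 bases against 8828 for the calls in CPE. Of 83 loci that share a region with a symbol locus, tested or not, 43 were called in SNE and 4 in CPE, with a median log2 ratio of -1.99. Without these 83, 67 calls in SNE were left.

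Symbols of processed pseudogenes were frequent among the shared regions. For 30 of the 83 loci the symbol of the region had the form of a pseudogene name, such as RPS12P23; 20 of these loci were called in SNE and 0 in CPE (1 at an unadjusted p under 0.05 in the authors' test), with a median of -2.34. CLOC_043902 (chr13:21668457-21668866), in the region of RPS12P23, had the highest FPKM of all, 234714 in SNE and 43523 in CPE (log2 ratio -2.43) in the authors' deposited table. RPS12, which encodes a protein of the small ribosomal subunit, had 326 FPKM in SNE and 57.1 in CPE (log2 ratio -2.52) in the authors' deposited table. CLOC_126721 (chr4:55842310-55842538), in the region of RPL38P3, stood at 187163 and 24363 FPKM (log2 ratio -2.94) in the authors' deposited table. RPL38 stood at 2686 and 518 FPKM (log2 ratio -2.37) in the authors' deposited table. CLOC_051831, over DYNLL1P1, stood at 12013 FPKM in SNE (log2 ratio -2.92) in the authors' deposited table. DYNLL1, a dynein light chain, stood at 215 FPKM in SNE (log2 ratio -2.14) in the authors' deposited table. These loci share a region, so the fragments behind their FPKM were not recovered. Their FPKM levels cannot be compared with those of the parents, and only ratios are set side by side here. In ratio, locus and parent were near in most pairs. Of 25 loci with a tested parent, 20 were below 0 together with the parent and 19 lay within 1 log2 unit of it. Medians were -2.38 for the loci and -2.32 for the parents. Since 24 of the 25 parents were below 0, other pairings could lie as near, which was not tested. The exceptions above 0 were the loci over ATP5G1P4 (0.70), RSL24D1P6 (0.78), GSTP1P1 (2.86), MRPL50P2 (3.72) and FAM96AP2 (9.47), as log2 ratios in the authors' deposited table; none of these 5 was called. The pairing was made by name after values were seen, and the sources used here do not say how reads that fit both copies were counted, so the split between them is uncertain.

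**Figure D5:**
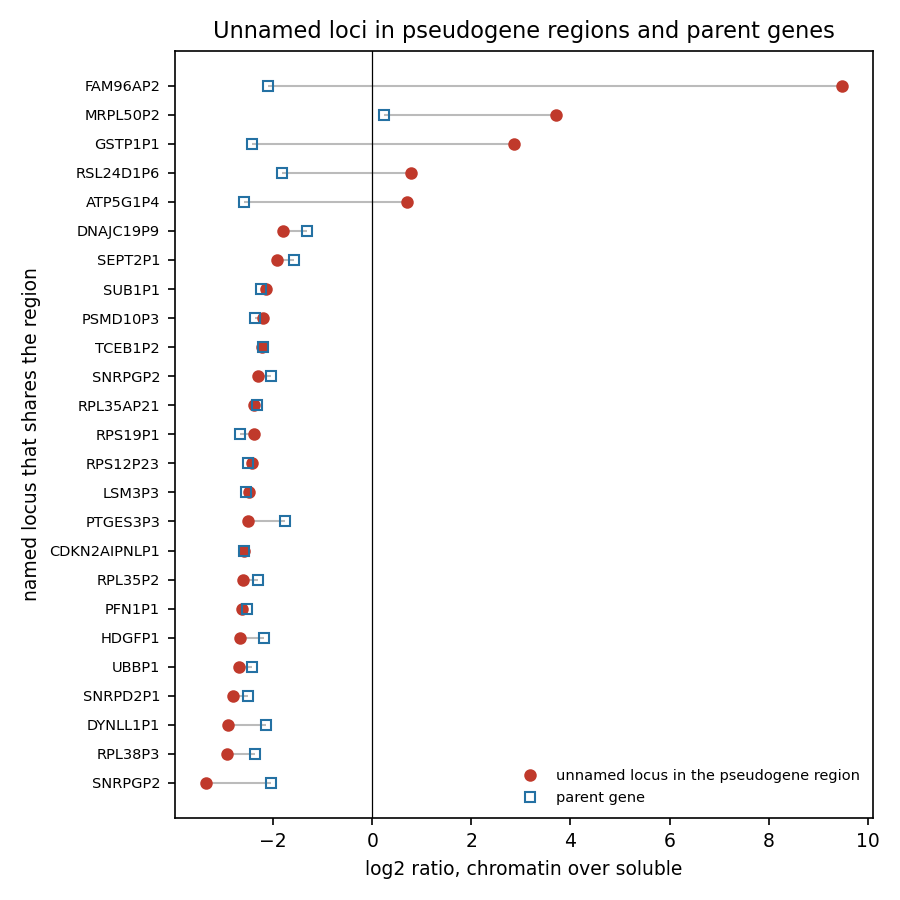
Points give the log2 ratio of chromatin over soluble FPKM (horizontal axis) for 25 short loci in the region of a pseudogene and for the pseudogene's parent gene, 1 pair a row. In 20 pairs both points lie below 0, and 5 loci stand above 0 apart from their parent.

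In loci of up to 100 bases, FPKM is high for the number of fragments behind it. CLOC_060268 (chr16:31173332-31173397, 66 bases) stood at 156335 FPKM in SNE and 26111 in CPE (log2 ratio -2.58, q = 0.000706) in the authors' deposited table, about 3981 and 701 fragments. CLOC_046387, with 94.6 FPKM in SNE, had about 3508 SNE fragments. CLOC_153672 (chr7:10492224-10492286), 70 bases from HSPA8P8, a copy of the heat shock protein gene HSPA8, stood at 82021 and 20821 FPKM (log2 ratio -1.98) in the authors' deposited table. CLOC_068434 (chr17:22020694-22020751) lay 1685 bases from MTRNR2L1, a nuclear copy of mitochondrial ribosomal RNA, and stood at 43563 and 9930 FPKM (log2 ratio -2.13) in the authors' deposited table. Of the 29 loci in this class 0 share a region with a symbol locus and 10 lay within 1 kb of one. Among called loci with at least 1 FPKM in both fractions, the smallest ratio was at CLOC_007384 (chr1:226314879-226315081), which the authors' deposited table gives at 235 FPKM in SNE and 24.1 in CPE (log2 ratio -3.28).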

How the data were processed

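Nuclear RNA of HEK293 cells was sequenced with a stranded kit for total RNA (labels' protocols). The submitters' processing notes name TopHat2, Cuffdiff and hg19, without versions. The authors deposited 1 FPKM value for SNE (3 samples) and 1 for CPE (3 samples) per locus, with their log2 ratio, p-value and q-value, per the file headers; the smallest q-value is 0.000706. A call is the authors' q of at most 0.05. DRB and mock samples were not analysed here. A second table, of isoforms, was not used, since 86.2% of its unique FPKM pairs that recur in the gene table stand under another identifier.

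Steps in low FPKM values were solved for whole fragments per library (tolerance 1e-05 of the value; loci alone in their region, up to 1000 bases). The design foresaw limma only for per-sample columns, so its use on recovered libraries was chosen after seeing the data (limma 3.58.1, R 4.3.3, trend, log2(FPKM + 0.1)). On simulated fragments over 6630 loci, decoding was exact and limma called 167 of 200 loci changed 4-fold and 3 unchanged ones. The simulated SNE means were set from the CPE counts, and fragments were drawn with counting error but no further spread between replicates. The simulation therefore does not cover limma at loci with few or no SNE fragments. Tables were made with Python 3.11.15 and pandas 2.3.3.

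The members and lists were chosen with earlier results of these data known. Loci were named by a rule: the 3 most abundant calls per direction in each 100-base class, the 5 largest and 5 smallest ratios at 1 FPKM or more, the top 3 at 0, the most abundant call per chromosome, those at the length limit, and the 3 most abundant symbol loci in regions as short. Other loci were named after their values were seen. Alternatives were stricter q, ratio, FPKM and length limits, other pseudocounts, 1 locus per region, the chromosome 6 window, and centring on symbol loci. A planned analysis of the loci's own sequence needs an hg19 genome and was not run.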

Additional observations from a re-analysis of the deposited data

How the results depend on the processing

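The 1408 calls in CPE became 702 with an FPKM of at least 1 in either fraction, 375 at lengths of at most 300 bases and 172 with both fractions above 0, the last chosen after seeing the data. Under the other 6 alternatives they stayed between 1286 and 1472. The 110 calls in SNE became 60 at lengths of at most 300 bases and 67 without regions shared with a symbol, also chosen after seeing the data, and stayed between 95 and 111 otherwise. The median log2 ratio of 2.81 became 0.35 with at least 1 FPKM in both fractions, 0.78 with a pseudocount of 1 and 4.14 when centred on symbol loci, whose median lies at -1.33. The 1239 loci at 0 in 1 fraction became 2577 under 0.1 FPKM. In limma on recovered fragments, 3515 loci higher in CPE became 3332 and 3051 with pseudocounts of 1 and 0.01, and 2935 to 3282 when 1 library at a time was left out. Of the authors' calls, those in CPE outnumbered those in SNE under every alternative, and the median log2 ratio stayed above 0. Centring on symbol loci turned some calls from SNE to CPE, giving 1423 in CPE and 95 in SNE. No paired analysis was possible because the deposited columns hold 1 value per fraction and the recovered libraries carry no replicate number. Fragments cover counting error only, and a locus with 0 SNE fragments in 3 libraries is not shown to lack soluble RNA.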
